A study of Homo sapiens with 3 samples.

Results

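The genes described here are RNU11, RNU12, RNU4ATAC and RNU6ATAC, which encode the U11, U12, U4atac and U6atac small nuclear RNAs (snRNAs) of the minor spliceosome. The members are the ChIP-seq peaks that overlap 4 fixed hg19 windows, 1 around each gene, in the peak lists of XPB and of XPD. The XPB list gave 4 peaks out of 21555 and the XPD list gave 3 out of 14570. The genes were chosen by their summit heights and scores, already known to be high in these lists, with RNU6ATAC as a contrast. Heights, scores and ranks therefore only describe them and carry no test.

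The minor spliceosome removes a small, conserved class of introns that the major spliceosome does not recognise. U11 and U12 act as a di-snRNP that reads the 5′ splice site and the branch point, and U4atac delivers U6atac, which takes part in the catalytic centre. U11, U12 and U4atac are made by RNA polymerase II from promoters specialised for snRNAs, and U6atac by RNA polymerase III from a promoter that shares some of the same elements. TFIIH is a general factor of RNA polymerase II: XPB is the translocase that helps to open promoter DNA, and XPD is the helicase that opens damaged DNA in nucleotide excision repair and links the kinase module to the core. TFIIH is not among the general factors of RNA polymerase III.

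The study profiled HT1080, an established human fibrosarcoma line, grown without any stated treatment. Chromatin crosslinked with 5% formaldehyde was taken from 1 pool and split into an XPB ChIP, an XPD ChIP and 1 input that was not enriched, so each antibody has 1 library and no replicate. The antibody fields name rabbit polyclonal antibodies to XPB and XPD, while the protocol text of all 3 samples describes a CSB antibody; the fields were followed. The input was not compared here, so the local background at these genes was not measured.

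Peak values come in 2 kinds. The height is the number of fragments piled up at the summit, not scaled to depth, and its median was 11 over XPB peaks and 13 over XPD peaks. The score is the caller's significance, -10 times the log10 of its p-value. Its lowest listed value was 150 and its ceiling 3100, reached by 11 XPB and 8 XPD peaks. These files do not give the reads per library, so a height is compared within a list, and between lists only against other paired peaks. Intervals are 95% intervals that cover counting error only and assume independent fragments; amplified copies of a fragment are not independent.

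RNU11 had the tallest summit of the 4 genes in both lists. The XPB peak lay on chromosome 1 from 28974334 to 28975875 (hg19), with its summit at 28975154 and a height of 635 fragments (Poisson interval 587 to 686). The XPD peak ran from 28974392 to 28976220, with its summit at 28975150 and a height of 540 (495 to 588). Each summit was the fourth tallest of its list, 57.7 times the median XPB height and 41.5 times the median XPD height. U11 base-pairs with the 5′ splice site, the first step of intron recognition. Both scores were at the ceiling, where the deposited names rank it 3 for XPB and 2 for XPD; ranks at the ceiling order tied scores.

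RNU4ATAC had the next listed height in both lists. The XPB peak lay on chromosome 2 from 122288036 to 122289205, with its summit at 122288475 and a height of 352 (316 to 391). The XPD peak ran from 122287975 to 122289232, with its summit at 122288472 and a height of 386 (348 to 426). These summits ranked 8 by height among XPB peaks and 6 among XPD peaks. U4atac is the chaperone strand that keeps U6atac inactive until the spliceosome is assembled. The scores were again at the ceiling, with deposited ranks of 9 for XPB and 7 for XPD.

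RNU12 had the lowest listed height of the polymerase II genes in both lists, although for XPB it lay within counting error of RNU4ATAC. The XPB peak lay on chromosome 22 from 43010855 to 43012035, with its summit at 43011367 and a height of 313 (279 to 350). The XPD peak ran from 43010701 to 43012051, with its summit at 43011339 and a height of 200 (173 to 230). By height the summits ranked 10 for XPB and 11 for XPD. U12 pairs with the branch point sequence and is the counterpart of U2 in the major spliceosome. The scores were at the ceiling, with deposited ranks of 11 and 8.

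RNU6ATAC, the polymerase III gene, had a low XPB peak and no XPD peak in its window. The XPB peak lay on chromosome 9 from 137029882 to 137030903, with its summit at 137030608 and a height of 9 (4.12 to 17.1). That height was 0.818 of the list's median, it was shared by 2880 XPB peaks in all, and 11.7% of XPB peaks were lower. The score was 269.8, rank 4030, and 81.3% of XPB peaks scored lower. The peak thus sat low in its list by height and in the upper part by score, over a width of 1022 bp, where the list's median width was 833 bp. U6atac pairs with the 5′ splice site after U11 leaves and contributes to catalysis.

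**Figure D1:**
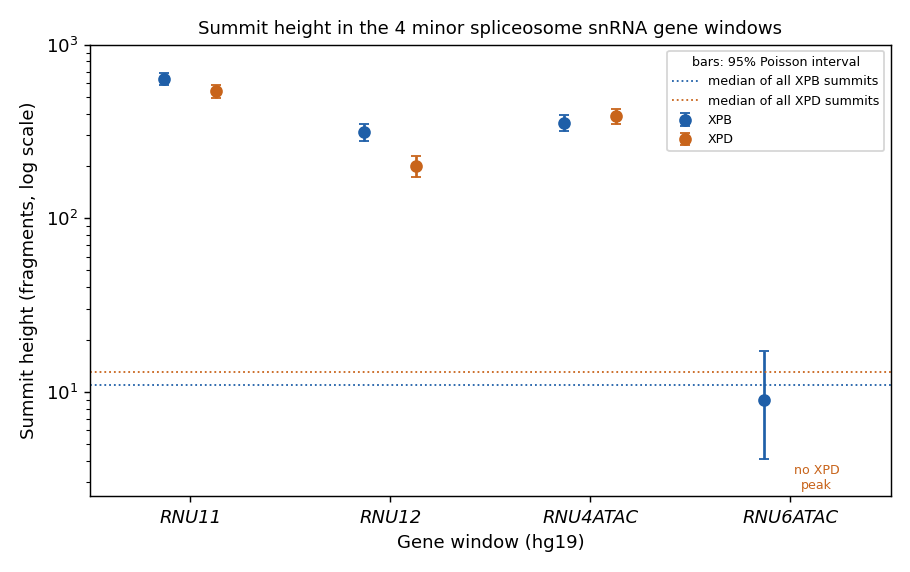
Summit height in fragments, on a log axis, in the window of each gene for the XPB (blue) and XPD (orange) lists, 1 library each, with 95% Poisson intervals and dotted lines at the median height of each list. RNU11, RNU12 and RNU4ATAC sit between 200 and 635 fragments, while the XPB summit of RNU6ATAC sits at 9, below the median of 11, and no XPD peak was listed there.

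Counts over the members stand beside those over whole lists, and nothing is read from them because the rule used these values. Of the 4 XPB peaks, 3 overlapped an XPD peak by at least 1 bp, compared with 26.6% of all XPB peaks. All 3 XPD peaks overlapped an XPB peak, compared with 38.7% of all XPD peaks. A score at the ceiling was found for 3 of the 4 XPB members (0.051% of the list) and for all 3 XPD members (0.0549%). The same peaks had summits of 100 fragments or more, as did 0.111% of XPB and 0.158% of XPD peaks. Of 8 pairs of peaks with both scores at the ceiling, 3 were these snRNA genes.

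A tall summit was not always a peak of ceiling score. Of the 24 XPB summits of 100 fragments or more, 10 had a score at the ceiling and 14 did not, and in the XPD list the numbers were 8 and 15. RNU11, RNU12 and RNU4ATAC were in the first kind in both lists. The only XPB peak taller than RNU11 at the ceiling was a 2357 bp peak on chromosome 21 with 2728 fragments, and no XPD peak at the ceiling was taller than RNU11. Several summits as tall as the members belonged to narrower peaks: the XPB peaks of 405 and 316 fragments on chromosomes 5 and X were 285 and 490 bp wide, against 1170 bp for RNU4ATAC, 1181 bp for RNU12 and 1542 bp for RNU11.

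Within each library the genes can be set against each other, since depth is then the same. In the XPB list RNU11 was 1.80 times as high as RNU4ATAC (exact interval 1.58 to 2.06) and 2.03 times as high as RNU12 (1.77 to 2.33). RNU4ATAC was 1.12 times as high as RNU12 there, with a counting interval that includes equal heights (0.963 to 1.31). In the XPD list RNU4ATAC was 1.93 times as high as RNU12 (1.62 to 2.30), and RNU11 was 1.399 times as high as RNU4ATAC (1.23 to 1.60) and 2.70 times as high as RNU12 (2.29 to 3.19). RNU11 was the tallest in both lists, while the order of RNU4ATAC and RNU12 in the XPB list lies within counting error. These ratios describe 1 library each and carry no test.

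RNU6ATAC stood far below the others in the XPB list. The others were chosen with their heights known to be high and RNU6ATAC as a contrast, so these ratios are a description and carry no test. The XPB height of RNU11 was 70.6 times that of RNU6ATAC (36.9 to 155), that of RNU4ATAC 39.1 times (20.4 to 86.2) and that of RNU12 34.8 times (18.1 to 76.8). The wide intervals come from the 9 fragments at the RNU6ATAC summit. That peak began 1382 bp into its window of 2500 bp and lay wholly above the window's midpoint. Without an hg19 annotation, whether it covers the RNU6ATAC gene was not tested, so the ratios describe the listed peak in the window. No such ratio is given for XPD, because a window without a listed peak has no height in these files.

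The ratio of XPD to XPB height differed most between RNU12 and RNU4ATAC. Dividing XPD by XPB height gave 0.850 for RNU11 (0.757 to 0.955), 0.639 for RNU12 (0.532 to 0.765) and 1.097 for RNU4ATAC (0.947 to 1.27). Depth cancels when these ratios are set against each other. The ratio at RNU4ATAC was 1.72 times that at RNU12 (exact conditional interval 1.36 to 2.17) and 1.29 times that at RNU11 (1.07 to 1.56), and the ratio at RNU11 was 1.33 times that at RNU12 (1.07 to 1.65). These 3 comparisons use the heights by which the genes were chosen, so they are a description, and their intervals cover counting error only, with no adjustment for the number of pairs. With 1 library per antibody, a difference between the proteins cannot be told apart from a difference between the libraries.

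Against other sites, the direction for RNU11 depended on which sites were used. RNU12 lay below the reference and RNU4ATAC at or above it in each comparison. Over 5536 pairs of peaks, each the other's largest overlap, XPD over XPB height had a median of 0.11 on the log2 scale. Relative to it RNU11 lay at -0.34 (-0.51 to -0.17), RNU12 at -0.75 (-1.02 to -0.49) and RNU4ATAC at 0.03 (-0.19 to 0.24). Only 4.41% of pairs had a lower ratio than RNU12, compared with 22.1% for RNU11 and 54.2% for RNU4ATAC. The 19 pairs with at least 100 fragments in both lists had a median of -0.40 on that scale, and against these tall sites RNU11 lay above the median, at 0.16, RNU4ATAC at 0.53 and RNU12 at -0.25. Of those 19 pairs, 14 lay below the median ratio of all pairs, and XPB was the taller in 12 of them and in 2003 of all 5536. Before centring, the 19 had a lower quartile of -0.47 and a lowest value of -0.69 on the log2 scale, and RNU12 was at -0.65. The 8 pairs with both scores at the ceiling, 3 of them these genes, had a median of -0.11 before centring. Their lowest value was that of RNU12. RNU11, at -0.23, lay below that median and RNU4ATAC, at 0.13, above it.

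**Figure D2:**
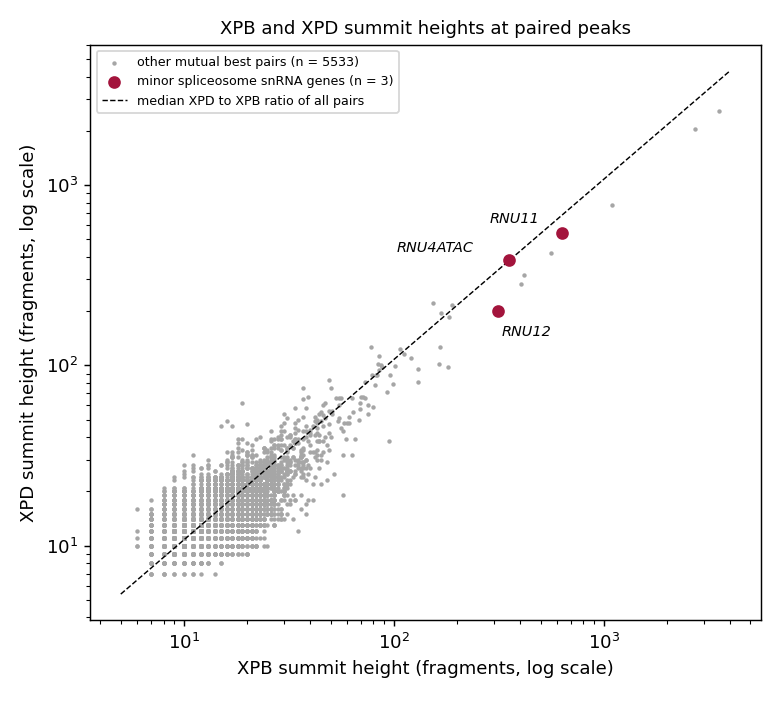
XPD against XPB summit height in fragments, both on log axes, for 5536 pairs of overlapping peaks, with RNU11, RNU12 and RNU4ATAC in red and a dashed line at the median ratio of all pairs. RNU4ATAC lies on the line, RNU11 below it and RNU12 farthest below it of the 3.

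The pairs most like each gene in both heights were found by the distance between log2 heights across all pairs. For RNU11 the nearest was on chromosome 1, from 149222589 to 149224856 (XPB 561 and XPD 418 fragments, distance 0.41), followed by a site on chromosome 8 (XPB 1094 and XPD 775, distance 0.94) and one on chromosome 17 from 41438036 to 41439127 (417 and 317, distance 0.98). For RNU4ATAC the chromosome 17 site was nearest, at 0.37, ahead of chromosome 5 from 71146718 to 71147002 (405 and 283, distance 0.49) and the chromosome 1 site (0.68). For RNU12 it was chromosome X from 108297366 to 108297855 (316 and 197, distance 0.03), then the chromosome 5 site (0.62) and chromosome 2 from 121832480 to 121833404 (190 and 215, distance 0.73). The chromosome X site matched RNU12 in height but not in score. Its scores were 1144 for XPB and 620.8 for XPD, where RNU12 was at the ceiling. The chromosome 8 site (1033 for XPB and 561.8 for XPD) and the chromosome 5 site (1696 and 1043) were also below the ceiling. The sites on chromosomes 1, 17 and 2 were at the ceiling in both lists. No gene table of hg19 was used, so these sites are given by position only.

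The XPB and XPD summits lay within 28 bp of each other at RNU11, RNU4ATAC and RNU12. The XPD summit was 4 bp below the XPB summit in coordinate at RNU11, 3 bp below at RNU4ATAC and 28 bp below at RNU12. Over all 5536 pairs the median summit distance was 97.5 bp (interquartile range 26 to 324), and over the 1040 pairs with both scores of at least 300 it was 49 bp. A distance of at most 4 bp was found in 5.60% of all pairs, of at most 3 bp in 4.61% and of at most 28 bp in 26.7%. Among the 19 tallest pairs, which include these genes, the median was 6 bp, the upper quartile 17.5 bp and the highest 67 bp. RNU11 and RNU4ATAC were below that median, and RNU12 was above that upper quartile. Library DNA of 400 to 700 bp was selected, per the labels, so a difference of a few bp is far below the length of a fragment.

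Peak ends agreed less closely than the summits, except the high-coordinate ends at RNU12, which were 16 bp apart. At RNU12 and RNU4ATAC the whole XPB interval lay inside the XPD interval, which was 1351 bp wide at RNU12 and 1258 bp at RNU4ATAC. At RNU11, 96.2% of the XPB peak lay under the 1829 bp XPD peak, which reached 345 bp further on the high-coordinate side. The XPD peaks were wider at all 3 genes, as was the XPD list in general, with a median of 937 bp. In width, 95.4% of XPB peaks were narrower than RNU11, 83.8% than RNU12 and 83.0% than RNU4ATAC. These shares are not set against those for height, by which the genes were chosen.

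Measured from the low-coordinate end, summits lay at 37.6% to 53.2% of the peak width at RNU11, RNU12 and RNU4ATAC, and at 71.1% at RNU6ATAC. Summit positions of other peaks were not compared. At RNU4ATAC the XPB summit lay 439 bp from the low-coordinate end and 730 bp from the other, and the XPD summit 497 and 760 bp. At RNU12 the distances were 512 and 668 bp for XPB and 638 and 712 bp for XPD. RNU11 differed between lists, with 820 and 721 bp for XPB and 758 and 1070 bp for XPD. As at RNU11 for XPB, the low-coordinate side was the longer at RNU6ATAC, with 726 bp against 295 bp around an XPB summit of 9 fragments.

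The window of each gene gives a coarse position. The summits lay 96 and 100 bp below the window's midpoint at RNU11 for XPB and XPD, 133 and 161 bp below at RNU12, and 25 and 28 bp below at RNU4ATAC. At RNU6ATAC the whole XPB peak lay above the midpoint, with its summit 858 bp above it, and the peak ended 97 bp before the window did. The midpoints are those of the chosen windows and not gene starts, and without an hg19 annotation no distance to a transcription start was measured.

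**Figure D3:**
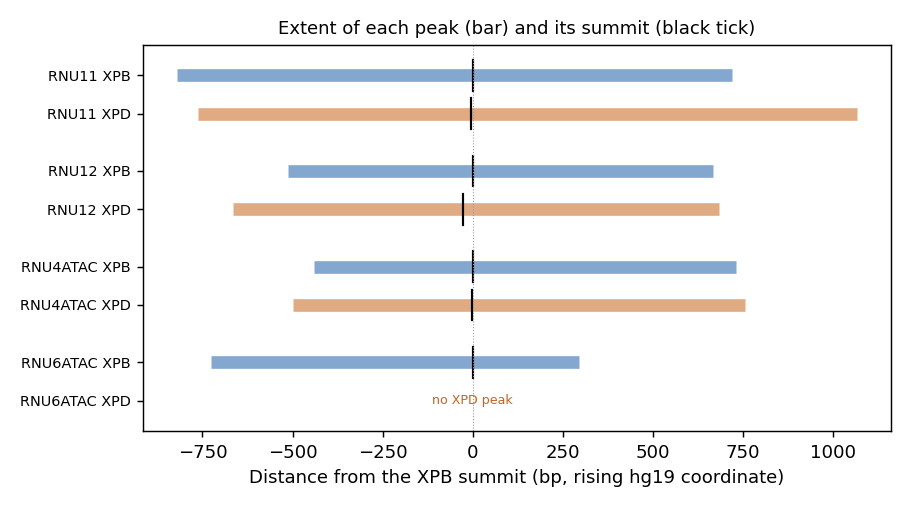
Extent of each XPB (blue) and XPD (orange) peak as a bar, with its summit as a black tick, in bp from the XPB summit of the same gene in the direction of rising hg19 coordinate. Summits of the 2 lists lie 3 to 28 bp apart at RNU11, RNU12 and RNU4ATAC, and the ends of the bars differ by 16 to 345 bp.

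The RNU6ATAC peak can be set beside XPB peaks like it, to read the lack of an XPD peak. Of the 2880 XPB peaks with 9 fragments, 15.8% (14.5 to 17.2) overlapped an XPD peak. Of the 790 XPB peaks within 10 of its score, 40.3% (36.8 to 43.8) did. Over all XPB peaks the share was 26.6% (26.0 to 27.2), above that at this height and below that at this score. A missing XPD partner was the more common outcome in both sets and in the whole list. It is thus not particular to peaks of this height or score. The nearest XPD peaks to the window lay 96.7 kb below and 244 kb above it. The XPD list holds no peak with a score under 150, so a missing entry does not show that XPD was absent.

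Each gene overlaps or lies next to other genes, and the lists do not assign a peak to a gene. In the RefSeq annotation of another assembly, GRCh38.p14, RNU11 overlaps the long noncoding gene TAF12-DT and lies next to TAF12, which encodes a subunit of TFIID. RNU12 lies between POLDIP3 and CYB5R3. RNU4ATAC lies within CLASP1, a gene for a microtubule regulator, and overlaps CLASP1-AS1. RNU6ATAC overlaps the long noncoding gene LOC124902297 and lies next to WDR5, which encodes a subunit of histone methyltransferase complexes. The snRNAs themselves are annotated at 126 to 150 bases, and peaks of 1022 to 1829 bp can cover more than 1 of these genes. How much of a peak belongs to which gene was not tested.

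The surroundings of the genes differed. RNU4ATAC had no other peak of either list within 50 kb of its window; the nearest lay 117 kb above it in both lists, with 17 fragments for XPB and 18 for XPD. RNU12 had none within 10 kb, and within 50 kb it had 3 XPB peaks of 10 to 17 fragments and 4 XPD peaks of 8 to 14. RNU11 had 1 XPB and 2 XPD peaks within 10 kb. The closest pair there lay below it, an XPB peak of 13 fragments from 28968783 to 28969893 and an XPD peak of 18 from 28969341 to 28971076, 6006 and 5438 bp from summit to summit. The RNU11 summits were 48.8 and 30.0 times as high as these.

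Having no neighbour within 10 kb was common for peaks in general, and having none within 50 kb was less so. In windows of 3000 bp centred on every summit, 58.9% of XPB and 66.2% of XPD peaks had no other peak of their own list within 10 kb, and 22.6% and 29.8% had none within 50 kb. RNU6ATAC, like RNU4ATAC, had no other peak of either list within 50 kb; its nearest XPB peaks lay 93.5 kb below the window and 162 kb above it, with 13 and 9 fragments. All other peaks within 50 kb of the 4 windows had at most 18 fragments, where the list medians were 11 for XPB and 13 for XPD.

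**Figure D4:**
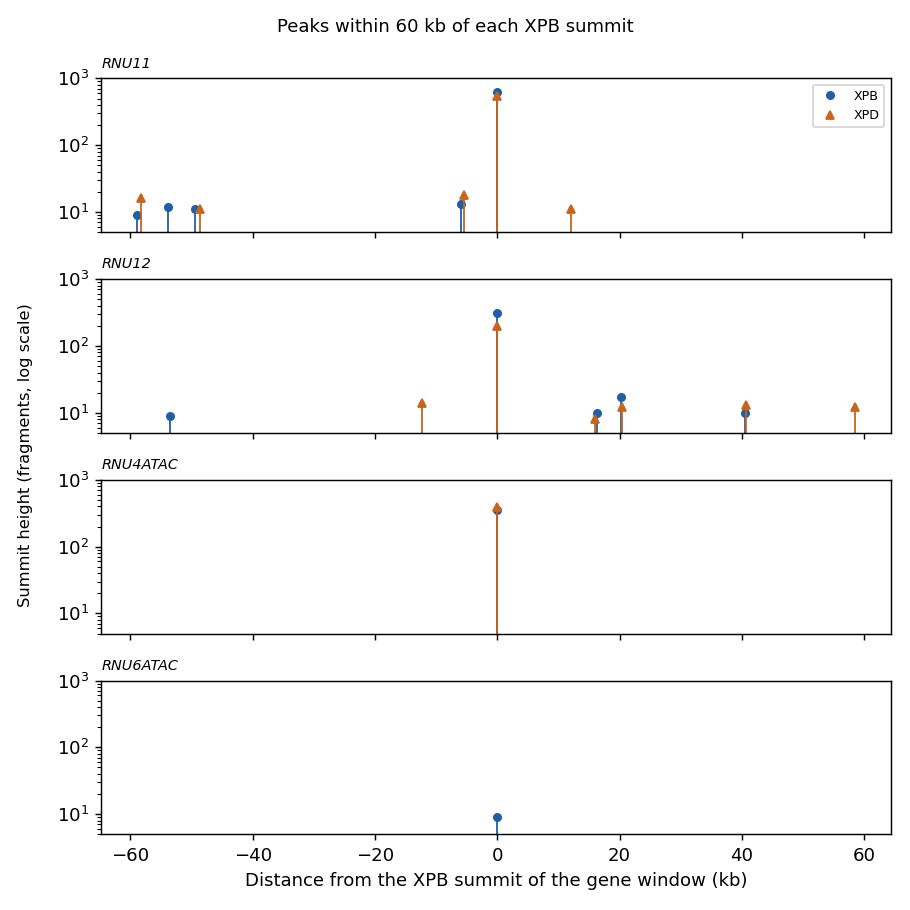
Summit height in fragments, on a log axis, of each XPB (blue circle) and XPD (orange triangle) peak within 60 kb of the XPB summit of each gene, with distance in kb. RNU11 and RNU12 have several low neighbours, RNU4ATAC and RNU6ATAC have none, and no neighbour exceeds 18 fragments.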

How the data were processed

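ChIP-seq of XPB and XPD was analysed, with 1 library each. Reads were aligned with Bowtie 0.12.7 and peaks called with MACS 1.4 on hg19, per the submitters' processing notes, and each ChIP library had its own list. Caller settings and use of the input as control are not given in the sources used here. Columns were read by the usual MACS layout: the deposited summit signal as fragment pileup without scaling to depth, and the deposited score as -10 times log10 of a p-value. ChIP libraries had 12 and the input 9 amplification cycles, per the labels.

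Peaks overlapping the 4 windows by at least 1 bp were taken. Every member is named; the 3 most similar pairs per gene were chosen by log2 heights. Intervals were exact (Poisson, Clopper-Pearson or conditional). No test between antibodies was possible. Overlap, pairing and ratio functions were tested on simulated data. The members, windows and lists were chosen with earlier results of these data known. Promoter sequences of the members and the minor spliceosome protein genes were not analysed here. Software was scipy 1.17.1, pandas 2.3.3 and numpy 2.4.6 under Python 3.11.15, with matplotlib 3.10.9 for plots.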

Additional observations from a re-analysis of the deposited data

How the results depend on the processing

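Of 51 alternatives, 31 stayed within the counting interval or 1.5 times the reported value, 19 moved outside it and 1 turned the direction. With the log2 ratio of XPD to XPB height centred on pairs of at least 100 fragments, RNU11 went from -0.34 to 0.16, RNU12 from -0.75 to -0.25 and RNU4ATAC from 0.03 to 0.53, since those pairs have a lower median ratio. Centring on pairs with scores of at least 300 or with summits within 250 bp, or not centring, kept all 3 within their intervals. Ranked by score with ties given the best rank, RNU11, RNU12 and RNU4ATAC all ranked 1 in both lists. Restricting height ranks to scores of at least 300 put RNU11 at 3 among XPD peaks. Leaving out peaks narrower than 600 bp, a setting chosen after seeing the data, put RNU11 at 2, RNU4ATAC at 5 and RNU12 at 6 among XPB peaks, and RNU11 at 3 among XPD peaks. Among pairs with both scores of at least 300, a summit distance as small as the gene's was found in 9.81% for RNU11, 39.3% for RNU12 and 8.37% for RNU4ATAC. Within 50 kb instead of 10 kb, the number of other XPB peaks was 2 at RNU11 and 3 at RNU12, and of XPD peaks 4 at RNU12. A score of at least 300 removed the RNU6ATAC peak and left 3 genes in each list. Score in place of height gave no ratio, because both scores are at the ceiling. The promoter element and protein gene settings were not run. No paired analysis was possible because each antibody has 1 library. What a missing peak shows is limited by the score floor of 150 and by read depth, which is unknown here.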

Other observations

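Over the 1 Mb centred on each window, RNU11 and RNU12 sat among more peaks than RNU6ATAC. There were 30 other XPB and 21 other XPD peaks around RNU11, 30 and 19 around RNU12, 18 and 12 around RNU4ATAC, and 9 and 12 around RNU6ATAC. The median height of these peaks was 10 to 12.5 fragments in every case. The RNU4ATAC region held another tall site, on chromosome 2 with its XPB summit at 121832910 and 190 fragments for XPB and 215 for XPD, both at the score ceiling. It lay 456 kb from the RNU4ATAC summit, and RNU4ATAC was 1.85 times as high for XPB and 1.80 times as high for XPD. The tallest other peak around RNU11 had 81 fragments for XPB and 78 for XPD, 143 kb away. Around RNU12 no other peak exceeded 23 fragments in either list, and RNU12 was 13.6 times as high for XPB and 8.70 times as high for XPD. Around RNU6ATAC the tallest had 15 fragments in both lists, above the 9 of the RNU6ATAC peak itself. These regions were described after their values were seen. The same counts were not made around other peaks, so whether these regions are dense or sparse for their lists was not tested.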
